A study of Mus musculus with 15 samples.

Results

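Calcium in a neuron is held low by buffers that bind it and by pumps and exchangers that remove it from the cytosol. The transcripts of 8 such genes were followed in mouse cerebellum. They were 3 genes of cytosolic calcium-binding proteins (Calb1, Calb2 and Pvalb), a pair of pumps of the endoplasmic reticulum (Atp2a2 and Atp2a3), a pair of plasma membrane pumps (Atp2b1 and Atp2b2) and the sodium/calcium exchanger Slc8a1. The genes were chosen by name, and all 8 of the 24421 genes in the count tables were found and passed the filter on low counts, with a mean log2 level of at least 7.3 (log2 CPM, where CPM are counts on a gene scaled to the size of the library by edgeR's TMM method).

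Cerebella came from FVB mice of 3 genotypes, with 5 RNA-seq libraries each. Wild-type mice carried no transgene. The other mice carried human ATXN1, the gene of spinocerebellar ataxia type 1, with an expanded tract of 82 glutamines, either as ATXN1[82Q] or as ATXN1[82Q]V591A;S602D, which has the amino acid substitutions V591A and S602D besides the tract and is called the substituted transgene here. Both transgenes are driven by the Pcp2 promoter, a promoter known to be active in Purkinje cells, the large neurons that carry the output of the cerebellar cortex. No source used here gives age, sex or transgene level. The mouse gene Atxn1 stood at 70.1 ± 9.03 CPM in wild type (SD, n = 5 libraries), at 76.8 ± 6.46 CPM with ATXN1[82Q] and at 83.9 ± 4.04 CPM in the substituted line, values that do not measure the transgene. Whether every library is from its own mouse is not stated, so p-values measure the spread between libraries. Both transgenes were compared with the same wild-type libraries, so those 2 comparisons are not independent.

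Purkinje cells fire calcium spikes and release calcium from internal stores, and they are known for a high content of buffers. Calb1 encodes calbindin, a fast buffer used as a marker of Purkinje cells, and Pvalb encodes parvalbumin, a slower buffer of Purkinje cells and of the interneurons of the molecular layer. Calb2 encodes calretinin, which in the cerebellum is known from granule cells and unipolar brush cells. The SERCA pumps Atp2a2 and Atp2a3 return calcium to the endoplasmic reticulum, the PMCA pumps Atp2b1 and Atp2b2 expel it from the cell at the cost of ATP, and Slc8a1 expels it in exchange for sodium.

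Markers of the expected cell types were present in every genotype. Between 36467948 and 42818401 counts fell on genes per library. With ATXN1[82Q], 20 of 22 Purkinje cell markers other than the 8 genes were lower than in wild type, at a median log2 fold change of -1.09, and 15 were lower with the substituted transgene, at a median of -0.35. Their summed level ran from 11229 to 12702 CPM in wild type, from 4909 to 5789 CPM with ATXN1[82Q], and 8119 to 10867 CPM in the substituted line. With ATXN1[82Q], 11 of 14 granule cell markers were lower than in wild type (median -0.23), 7 of 12 markers of molecular layer and Golgi interneurons were higher (median 0.24; 2 in the libraries with Ttr under 100 CPM, with a median of 0.21), and all 11 microglial markers were higher (median 0.90). In the substituted line edgeR called none of these 37 markers, 10 of which had an unadjusted p under 0.05, and DESeq2 called 1 granule cell and 1 microglial marker. The summed level of the microglial markers ran from 156 to 182 CPM in wild type, from 286 to 321 CPM with ATXN1[82Q], and 168 to 196 CPM in the substituted line. In whole tissue, fewer cells of a type and less RNA per cell cannot be told apart, and the part of these markers in the results below was not tested. Choroid plexus RNA varied within each genotype, with Ttr, a choroid plexus transcript, from 4.26 to 4869 CPM over the 15 libraries. Markers of brainstem neurons were higher in 2 ATXN1[82Q] libraries, replicates 2 and 5, by a mean of 1.49 and 2.42 log2 units over wild type, and their summed level ran from 15.6 to 37.8 CPM in wild type, 27.6 to 95.5 CPM with ATXN1[82Q] and 28.2 to 32.8 CPM in the substituted line. No gene of the marker lists was at 0 in all libraries, while 8 of the 14 brainstem genes and 1 of the 10 choroid plexus genes (Sostdc1) were at 0 in at least 1. Without ATXN1[82Q] replicates 2 and 5, a choice made after seeing the data, 7, 3 and 6 of the 8 genes were called lower in the 3 comparisons given next, in the order ATXN1[82Q] against wild type, substituted transgene against wild type and ATXN1[82Q] against the substituted transgene. Of all 15992 genes tested in that setting, 1997, 190 and 1835 were called lower.

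By symbol 5 of the 8 genes were matched to RefSeq promoters (GRCm38.p6), and Calb1, Calb2 and Atp2a2 were not. The table lists 2 start sites for Pvalb, 2 for Atp2b1 and 3 for Atp2b2, and the one nearest to the annotated start of the gene was used. The 250 bases before the start site are shown for Atp2a3, which differed most between genotypes among the 8, for Pvalb, which differed less, and for Slc8a1, which had the smallest called change. These 3 windows lie outside the annotated genes. For Atp2b1 236 of the 250 bases, and for Atp2b2 138, lie in annotated exons of the gene itself, and those windows are not shown. Capitals mark the GC box GGGCGG on either strand, and neighbouring boxes can overlap. The windows are chr11:72960919-72961168 on the plus strand for Atp2a3, chr15:78206401-78206650 on the minus strand for Pvalb and chr17:81738388-81738637 on the minus strand for Slc8a1, each written 5′ to 3′ along its gene.
Atp2a3: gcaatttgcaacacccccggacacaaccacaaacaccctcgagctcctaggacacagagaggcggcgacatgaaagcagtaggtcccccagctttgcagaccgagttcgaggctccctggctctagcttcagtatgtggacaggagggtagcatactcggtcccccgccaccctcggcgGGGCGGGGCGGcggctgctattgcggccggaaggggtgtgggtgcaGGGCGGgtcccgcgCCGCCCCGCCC
Pvalb: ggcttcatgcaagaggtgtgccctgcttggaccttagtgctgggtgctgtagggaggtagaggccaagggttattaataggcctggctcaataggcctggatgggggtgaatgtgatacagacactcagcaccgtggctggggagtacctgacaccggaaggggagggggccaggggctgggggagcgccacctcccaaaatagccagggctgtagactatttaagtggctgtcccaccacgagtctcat
Slc8a1: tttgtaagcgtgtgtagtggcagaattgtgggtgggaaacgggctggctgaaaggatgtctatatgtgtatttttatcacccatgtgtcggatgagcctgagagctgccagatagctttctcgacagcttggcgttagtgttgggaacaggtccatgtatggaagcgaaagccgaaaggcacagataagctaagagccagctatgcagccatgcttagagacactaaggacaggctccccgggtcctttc
The Atp2a3 window held 5 GC boxes and the Atp2b1 window 4, Atp2b2 held 1, and Pvalb and Slc8a1 held none, where 32.7% of 32851 promoter windows of this length hold at least 1. GC content was 78.4% for Atp2b1, 69.6% for Atp2b2, 66.8% for Atp2a3, 58.4% for Pvalb and 50.4% for Slc8a1, against a median of 52.4% over all windows. Atp2b1, with the highest value, was not called in any comparison, and whether GC content goes with the size of the change was not tested. None of the 5 windows contained the octamers TGAATGAA, TGAATGGA, TCAATGAA or TCAATGGA, which CIC, a repressor bound by ATXN1, is known to recognise and which occur in 3.19% of all windows on either strand. The half-site AGGTCA of the nuclear receptor RORA, present in 14% of windows, was also absent from the 5. The 4 windows at the other start sites held neither motif, with no GC box for Pvalb, 3 for Atp2b1 and 0 and 1 for Atp2b2.

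Per kilobase of merged exon, Pvalb was the most abundant of the 8 transcripts in wild type at 850 ± 36.1 CPM per kb (SD, n = 5). Calb1 at 217 ± 10.2, Atp2a2 at 215 ± 15.9 and Calb2 at 199 ± 12.7 followed and lay within about their spread of each other. Atp2b2 at 70.7 ± 5.66 and Atp2a3 at 62.2 ± 3.24 came next, then Atp2b1 at 19.4 ± 1.37 and Slc8a1 at 9.02 ± 0.722. The order was another with ATXN1[82Q]: Calb1, at 93.3 ± 8.29, stood below Calb2 at 137 ± 11.9 and Atp2a2 at 135 ± 7.67, and Atp2a3, at 18.5 ± 2.07, stood at the level of Atp2b1 at 18.1 ± 1.24. Under the substituted transgene the order was Pvalb at 707 ± 41, Atp2a2 at 187 ± 15.2, Calb2 at 178 ± 7.33 and Calb1 at 164 ± 13.9, with those 3 within about their spread of their neighbours, then Atp2b2 at 62.7 ± 6, Atp2a3 at 44.1 ± 7.33, Atp2b1 at 19.6 ± 1.06 and Slc8a1 at 8.72 ± 0.425. These orders depend on the merged exon length, which joins all annotated exons of a gene and ran from 1.04 kb for Pvalb to 18.8 kb for Slc8a1. In CPM not divided by length, wild-type Atp2a2 at 1306 and Calb1 at 1050 stood above Pvalb at 885 and Atp2b2 at 891.

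With ATXN1[82Q], 7 of the 8 transcripts were lower than in wild type and none was higher (edgeR quasi-likelihood test, with calls at a Benjamini-Hochberg adjusted p below 0.05). In that comparison 14.9% of the 15843 genes tested were called lower, and among genes with a mean log2 level of at least 5 the share called lower was 25.4%. The 7 genes also did not overlap between the genotypes, as did not 9.79% of all genes in that direction. With the substituted transgene, 3 of the 8 were lower, Calb1, Pvalb and Atp2a3, where 1.2% of all genes were called lower and 2.02% of those at a mean log2 level of at least 5, and these 3 did not overlap with wild type, against 2.03% of all genes. Among the uncalled genes of this comparison, Calb2, Atp2a2 and Atp2b2 had unadjusted edgeR p of 0.0101, 0.00504 and 0.014, each with a lower level. Between the transgenes, 7 were lower with ATXN1[82Q], where 14.6% of all genes were and 25.5% of those at that level, and 6 of them did not overlap, against 9.61%. The median log2 fold change of the 8 genes was -0.61 with ATXN1[82Q], -0.19 with the substituted transgene and -0.43 between the transgenes, and that of all genes tested was 0.01 in each. Upper-quartile scaling turned the 2635 higher and 2358 lower genes of ATXN1[82Q] against wild type into 3500 and 1598, and the 2134 higher and 2320 lower genes between the transgenes into 2956 and 1569. The 8 genes together took 0.498% to 0.534% of all counts in wild type, 0.323% to 0.346% with ATXN1[82Q] and 0.414% to 0.486% with the substituted transgene.

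**Figure D1:**
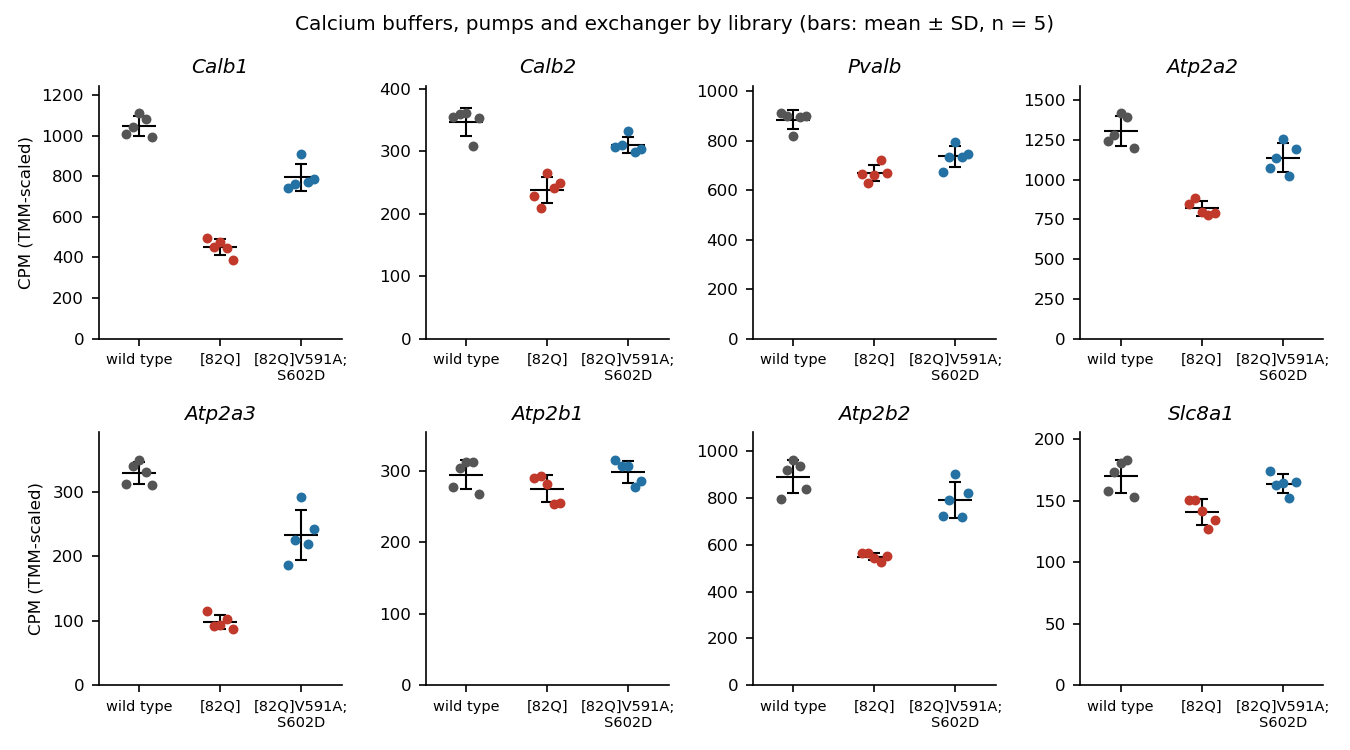
TMM-scaled CPM (y axis, linear, from 0) of the 8 genes by genotype, where dots are libraries and bars show the mean and SD (n = 5). For Calb1 and Atp2a3 the 3 genotypes lie at separate levels, and for Atp2b1 they overlap.

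Calb1 (GRCm38, chromosome 4, 15881264 to 15908064, plus strand) had the largest change of the 3 buffers. Its level in wild-type replicates 1 to 5 was 1011, 1045, 1113, 1085 and 994 CPM. In ATXN1[82Q] mice it was 496, 452, 475, 449 and 388.9 CPM, and with the substituted transgene 741, 764, 912, 773 and 785 CPM. The 3 genotypes did not overlap, and the substituted transgene lay between the others, with replicate 3 nearest to wild type. Against wild type the log2 fold change was -1.21 (SE 0.0656, adjusted p = 1.36e-09) with ATXN1[82Q], a 2.32-fold lower level. It was -0.40 (SE 0.0647, adjusted p = 0.00305) under the substituted transgene, 1.32-fold lower. The difference between the transgenes was itself past the threshold at -0.81 (SE 0.0651, adjusted p = 4.21e-07, edgeR).

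Calb2 (chromosome 8, 110137502 to 110168210, minus strand) was called lower with ATXN1[82Q] and was not called with the substituted transgene. Wild-type libraries stood at 355, 360, 361, 308 and 353 CPM. ATXN1[82Q] libraries stood at 228, 210, 265, 241 and 249 CPM, below all libraries of the other genotypes. Libraries of the substituted transgene, at 307, 310, 332, 299 and 303 CPM, overlapped with wild type through wild-type replicate 4. The log2 fold change was -0.54 (SE 0.0567, adjusted p = 1.64e-06) with ATXN1[82Q]. The substituted transgene gave -0.16 (95% interval -0.28 to -0.04, adjusted p = 0.23, edgeR). Between the transgenes Calb2 differed by -0.38 (SE 0.0566, adjusted p = 0.000151). In the 7 libraries with Ttr under 100 CPM that last difference was -0.30, with an edgeR adjusted p of 0.0601. Beside Calb2, the summed level of granule cell markers ran from 7952 to 9319 CPM in wild type, 6229 to 6875 CPM with ATXN1[82Q], and 7881 to 8780 CPM in the substituted line. The mean of 8 unipolar brush cell markers ran from -0.21 to 0.16 log2 units around the wild-type mean in wild type, from 0.01 to 0.35 with ATXN1[82Q], and from 0.06 to 0.42 in the substituted line.

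Pvalb (chromosome 15, 78191114 to 78206400, minus strand) was the buffer that differed least between the 2 transgenes. It was 912, 899, 819, 897 and 899 CPM in wild type. It was 664, 627, 662, 721 and 670 CPM with ATXN1[82Q] and 675, 733, 795, 735 and 745 CPM with the substituted transgene. Both transgenic genotypes lay below every wild-type library, and they overlapped with each other. The log2 fold change against wild type was -0.40 (SE 0.0481, adjusted p = 7.17e-06) with ATXN1[82Q] and -0.27 (SE 0.0481, adjusted p = 0.0069) with the substituted transgene. In the libraries with Ttr under 100 CPM the latter was -0.31, with an edgeR adjusted p of 0.084. Between the transgenes it was -0.14 (95% interval -0.24 to -0.04, adjusted p = 0.0392), and this call was lost under 15 of 20 alternatives, with an edgeR adjusted p from 0.0515 to 0.475. Those alternatives include leaving out ATXN1[82Q] replicate 1, 2, 3 or 5 or replicate 2, 3, 4 or 5 of the substituted transgene. The summed level of the interneuron markers was 653 to 783 CPM in wild type, 789 to 877 CPM with ATXN1[82Q] and 698 to 749 CPM with the substituted transgene.

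Of the pumps of the endoplasmic reticulum, Atp2a3 (SERCA3; chromosome 11, 72961169 to 72993044, plus strand) had the largest change of the 8 genes. In wild type it was 312, 340, 350, 330 and 311 CPM. It was 115, 91.4, 93.7, 102 and 86.9 CPM with ATXN1[82Q], and 187, 224, 292, 219 and 242 CPM with the substituted transgene. No library of one genotype reached the range of another, and the substituted transgene spread most, from replicate 1 at the bottom to replicate 3 at the top. The Purkinje cell markers of those libraries had the same extremes, with a mean of -0.53 log2 units from wild type in replicate 1 and -0.14 in replicate 3. Atp2a3 was 3.36-fold lower with ATXN1[82Q] than in wild type, a log2 fold change of -1.75 (SE 0.0952, adjusted p = 1.36e-09). The substituted transgene left it 1.41-fold lower, at -0.50 (SE 0.0923, adjusted p = 0.00865). The transgenes differed by -1.25 (SE 0.0942, adjusted p = 2.64e-07, edgeR).

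Atp2a2 (SERCA2, the SERCA pump found in most tissues; chromosome 5, 122453513 to 122502225, minus strand) fell less than Atp2a3. Wild-type libraries held 1241, 1282, 1418, 1394 and 1196 CPM, and ATXN1[82Q] libraries 846, 886, 795, 776 and 788 CPM. Libraries of the substituted transgene held 1074, 1136, 1257, 1025 and 1195 CPM. ATXN1[82Q] lay below all others, and the substituted transgene overlapped with wild type. The log2 fold change with ATXN1[82Q] was -0.67 (SE 0.0622, adjusted p = 4.01e-07), and between the transgenes -0.48 (SE 0.0621, adjusted p = 4.9e-05). For the substituted transgene the value was -0.20 (95% interval -0.33 to -0.07, edgeR adjusted p = 0.159), and DESeq2 gave an adjusted p of 0.0346. Of its exon sequence 1.36% is shared with Gm43361 on the plus strand, and the counting is not stated to use strand.

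Of the plasma membrane pumps, Atp2b2 (PMCA2, whose loss causes ataxia and deafness in mice; chromosome 6, 113743831 to 114042613, minus strand) was lower with ATXN1[82Q]. It stood at 796, 921, 964, 938 and 838 CPM in wild type and at 564, 563, 541, 528 and 550 CPM with ATXN1[82Q]. Under the substituted transgene it stood at 721, 794, 900, 719 and 820 CPM, overlapping with wild type, whereas the ATXN1[82Q] libraries were lower than all others. The log2 fold change was -0.70 (SE 0.0634, adjusted p = 3.33e-07) with ATXN1[82Q] and -0.53 (SE 0.0633, adjusted p = 2.22e-05) between the transgenes. For the substituted transgene it was -0.17 (95% interval -0.31 to -0.04, edgeR adjusted p = 0.262).

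Atp2b1 (PMCA1, the pump isoform found in most cell types; chromosome 10, 98914406 to 99026143, plus strand) was not called in any comparison. Its level was 278, 303, 312, 313 and 268 CPM in wild type, 289, 293, 282, 254 and 255 CPM with ATXN1[82Q] and 316, 306, 307, 277 and 286 CPM with the substituted transgene. The 3 genotypes overlapped. The log2 fold change was -0.10 (95% interval -0.22 to 0.01, adjusted p = 0.175) with ATXN1[82Q] and 0.02 (95% interval -0.10 to 0.13, adjusted p = 0.938, edgeR) with the substituted transgene. Between the transgenes it was -0.12 (SE 0.0551, 95% interval -0.24 to -0.00, adjusted p = 0.117, edgeR).

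Slc8a1 (NCX1; chromosome 17, 81373105 to 81738377, minus strand) had the smallest called change with ATXN1[82Q]. It was 158, 173, 181, 183 and 153 CPM in wild type, 151, 150, 142, 127 and 134 CPM with ATXN1[82Q] and 174, 163, 165, 152 and 166 CPM with the substituted transgene. The highest ATXN1[82Q] library, replicate 1, lay just under the lowest library of each other genotype. The log2 fold change was -0.27 (SE 0.056, adjusted p = 0.0015) with ATXN1[82Q], -0.05 (95% interval -0.17 to 0.07, adjusted p = 0.786) with the substituted transgene and -0.22 (SE 0.056, adjusted p = 0.00792, edgeR) between the transgenes. Exons of AC122399.1 and Gm11096 on the plus strand share 1.62% of its exon sequence.

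**Figure D2:**
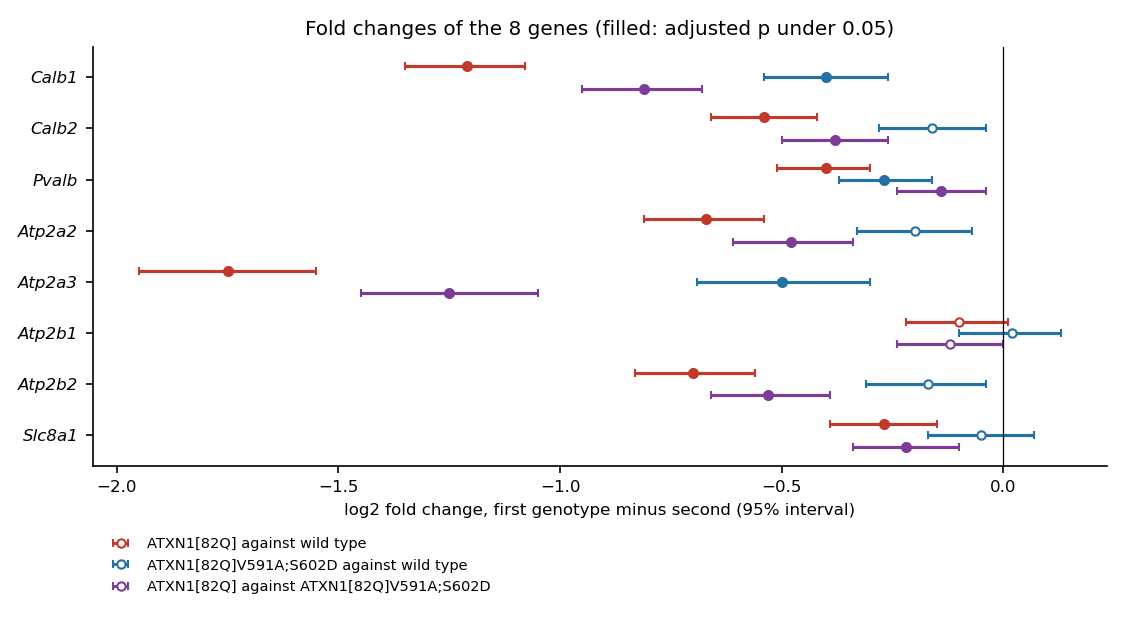
Log2 fold change of each gene (x axis, first genotype minus second) with its 95% interval in the 3 comparisons, where filled dots have an adjusted p under 0.05. With ATXN1[82Q] the values run from -1.75 for Atp2a3 to -0.10 for Atp2b1, and with the substituted transgene from -0.50 to 0.02.

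The genes did not change in proportion, as log2 ratios taken within each library show. Such ratios do not depend on the scaling between libraries. Of 45 tests of them, 42 passed (2-sided exact permutation tests of 5 against 5 libraries, adjusted over the 45). The tests are not independent, since most share Calb1 or the mean of the Purkinje cell markers as denominator. Ratios of other genes were not tested, so the count of passed tests has no background share beside it. It is thus no result about these genes in particular. The smallest exact p that 5 against 5 allows is 0.00794, which adjusts to 0.00965. Both values hold for every difference below that is given without a p of its own.

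In whole tissue the ratio of Pvalb to Calb1 was higher with ATXN1[82Q], as Pvalb fell less than Calb1. The part of cell mix in this ratio was not tested. In wild type the log2 ratio of Pvalb to Calb1 was -0.15, -0.22, -0.44, -0.27 and -0.15, with ATXN1[82Q] 0.42, 0.47, 0.48, 0.68 and 0.78, and with the substituted transgene -0.13, -0.06, -0.20, -0.07 and -0.08. All ATXN1[82Q] libraries lay above all others, and the substituted transgene overlapped with wild type. The ratio was higher by 0.81 with ATXN1[82Q] than in wild type. For the substituted transgene it was higher by 0.14 (adjusted exact p = 0.034), a call lost when 1 of 7 libraries was taken out, wild-type replicate 2, 3 or 4 or replicate 1, 2, 4 or 5 of the substituted transgene, with values from 0.09 to 0.14 and adjusted exact p from 0.0595 to 0.0935. The log2 ratio of Calb2 to Calb1 was higher than in wild type by 0.67 with ATXN1[82Q] and by 0.24 with the substituted transgene. Between the transgenes the ratio of Pvalb to Calb1 differed by 0.68.

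For the SERCA pumps the whole-tissue ratio of Atp2a3 to Atp2a2 was lower with both transgenes. The part of cell mix was not tested here either. In replicates 1 to 5 the log2 ratio of Atp2a3 to Atp2a2 was -1.99, -1.92, -2.02, -2.08 and -1.94 in wild type and -2.88, -3.28, -3.08, -2.92 and -3.18 with ATXN1[82Q]. For the substituted transgene it was -2.52, -2.34, -2.10, -2.22 and -2.31. The genotypes formed separate ranges, and the difference from wild type was -1.08 with ATXN1[82Q] and -0.31 with the substituted transgene. Between the transgenes it was -0.77. The log2 ratio of Atp2b2 to Atp2b1 was 1.60 ± 0.0492 in wild type, 1.00 ± 0.0762 with ATXN1[82Q] and 1.40 ± 0.144 in the substituted line (SD, n = 5). It was thus lower by 0.59 log2 units with ATXN1[82Q], and its difference of -0.19 with the substituted transgene (adjusted exact p = 0.0261) was lost without wild-type replicate 2, 3, 4 or 5, with adjusted exact p from 0.0536 to 0.0595.

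Set against the mean of the 22 Purkinje cell markers, the 8 genes lay on both sides. With ATXN1[82Q], Atp2a3 fell by 0.69 log2 units more than the mean of the markers and Calb1 by 0.15 more. The other 6 were higher relative to the markers than in wild type: Atp2b1 by 0.96, Slc8a1 by 0.80, Pvalb by 0.66, Calb2 by 0.52, Atp2a2 by 0.39 and Atp2b2 by 0.37. The markers themselves stood at a mean of -1.07 log2 units from wild type, so an unchanged gene would rise against them by about that much. Single markers ran from a log2 fold change of -2.24 for Rgs8, further than Atp2a3 at -1.75, to 0.08 for Foxp2. Foxp2 and Gad1 (-0.05) were the 2 markers not called, and both raise the mean that Calb1 was set against. For a gene that fell little, the outcome of this test was thus fixed by the fall of the markers. The ratios show only how far each gene fell beside the markers. The log2 ratio of Atp2a3 to the markers was 0.14, 0.15, 0.22, 0.11 and 0.16 in wild type and -0.40, -0.59, -0.61, -0.46 and -0.58 with ATXN1[82Q]. It was -0.13, 0.01, 0.13, 0.03 and 0.03 with the substituted transgene. ATXN1[82Q] did not overlap with the others, and replicate 3 of the substituted transgene reached the wild-type range.

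With the substituted transgene, the ratio of Calb1 to the markers differed from wild type by -0.04 log2 units (adjusted exact p = 0.278) and that of Pvalb by 0.10 (adjusted exact p = 0.114), neither past the threshold. For Atp2a3 the difference was -0.14 (adjusted exact p = 0.0183), with an adjusted exact p of 0.0523 when the median of the markers took the place of their mean. Atp2b1 at 0.39, Slc8a1 at 0.32 and Atp2b2 at 0.19 were higher, relative to markers that themselves stood at a mean of -0.37 log2 units from wild type. So were Atp2a2 at 0.17 (adjusted exact p = 0.0183) and Calb2 at 0.20 (adjusted exact p = 0.0261). The Calb2 call was lost without wild-type replicate 2 or 4 or without replicate 1 of the substituted transgene (adjusted exact p from 0.0523 to 0.0595). The ratio of Atp2a3 to Calb1 differed from wild type by -0.53 with ATXN1[82Q] and by -0.11 (adjusted exact p = 0.108) with the substituted transgene, the latter at -0.14 with an adjusted exact p of 0.0179 without its replicate 3.

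**Figure D3:**
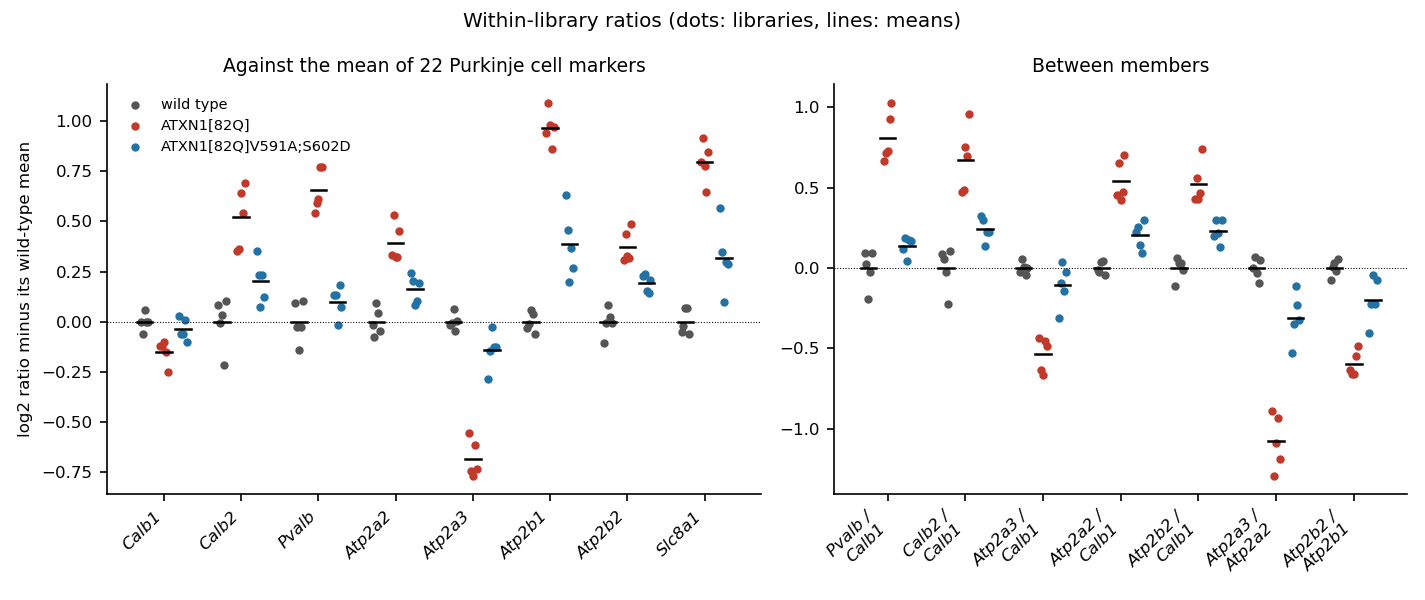
Log2 ratio within each library minus its wild-type mean (y axis), for each gene against the mean of 22 Purkinje cell markers (left) and between members (right), where dots are libraries and lines are means. Atp2a3 lies lowest on the left, with a mean of -0.69 for ATXN1[82Q], and Atp2b1 highest, with 0.96. The markers' own mean was -1.07 log2 units from wild type for ATXN1[82Q].

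Other genes that handle calcium were called in both directions, as were genes at large. With ATXN1[82Q] against wild type, 14.9% of the 15843 genes tested were called lower and 2635 of them were called higher. A list with counts near those shares gives no result of its own. Of 22 tested genes of EF-hand sensors and other cytosolic buffers, 11 were lower and 5 higher with ATXN1[82Q] than in wild type, with a median log2 fold change of -0.14, beside 0.01 over all genes tested. Hpcal1, a calcium sensor of the visinin family, fell from 309 ± 7.9 to 102 ± 4.61 CPM, a log2 fold change of -1.60 (SE 0.0874, adjusted p = 1.36e-09). Ncald, neurocalcin delta of the same family, fell from 230 ± 16 to 137 ± 8.08 CPM, and Necab3 from 29.9 ± 4.57 to 17.9 ± 1.61 CPM (edgeR adjusted p = 2.06e-08 and 1.19e-05). The substituted transgene, where 1.2% of all genes were called lower, had 3 of the 22 lower and none higher. They were Hpcal1 at 220 ± 39.9 CPM (-0.49, adjusted p = 0.00513), Necab3 at 21.5 ± 1.31 CPM (-0.47, adjusted p = 0.0109) and Calm2 at 1467 ± 26.5 CPM against 1721 ± 43.1 CPM in wild type (-0.23, edgeR adjusted p = 0.00201). Calm2 is 1 of the calmodulin genes. In the libraries with Ttr under 100 CPM Necab3 was at -0.46 and Calm2 at -0.24 in this comparison, with edgeR adjusted p of 0.29 and 0.124.

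Of the 14 other pumps and exchangers, 2 were lower and 2 higher with ATXN1[82Q], about the shares of all genes, and the median was 0.03. Atp2b3, the plasma membrane pump PMCA3, fell from 453 ± 43.9 to 364 ± 30.2 CPM (-0.32, adjusted p = 0.0012), and Slc8a2, the exchanger NCX2, from 159 ± 15.8 to 130 ± 14.3 CPM (-0.29, edgeR adjusted p = 0.00375). In the libraries with Ttr under 100 CPM Slc8a2 was at -0.31, with an edgeR adjusted p of 0.055. The potassium-dependent exchangers Slc24a4 (0.76) and Slc24a3 (0.16) were the higher ones, and each call was lost on leaving out any of several single libraries, with an edgeR adjusted p of up to 0.087 for Slc24a4 (wild-type replicate 2, 3 or 4 or ATXN1[82Q] replicate 2, 4 or 5) and up to 0.103 for Slc24a3 (wild-type replicate 1, 3 or 4 or ATXN1[82Q] replicate 1, 3, 4 or 5). No gene of this group was called with the substituted transgene by edgeR or DESeq2, and none had an unadjusted p under 0.05 in edgeR.

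Of 15 tested pump regulators and subunits, 6 were lower and 2 higher with ATXN1[82Q]. Without the libraries high in brainstem markers 6 were lower and 0 higher. Nptn, neuroplastin, an obligatory subunit of the plasma membrane pumps, fell from 726 ± 28.5 to 552 ± 13 CPM (-0.40, adjusted p = 5.51e-07). Camk2a and Camk2b, subunits of a calmodulin-dependent kinase, fell from 135 ± 12.3 to 56.3 ± 5.2 CPM (-1.26) and from 879 ± 34.6 to 631 ± 30.8 CPM (-0.48), with edgeR adjusted p of 2.04e-07 and 2.15e-07. Sln, sarcolipin, a small SERCA inhibitor, was higher by 1.03 at a low level, 1.84 ± 0.801 against 0.896 ± 0.387 CPM (adjusted p = 0.0108), and without the ATXN1[82Q] libraries with a high brainstem mean its edgeR adjusted p was 0.0631. Sln is also in the list of unipolar brush cell markers, so it is counted in both lists. In the substituted line edgeR called none of the 15, of which 8 had an unadjusted p under 0.05, and DESeq2 called 2 lower.

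Of 15 calcium-binding proteins of the endoplasmic reticulum, 2 were lower and 4 higher with ATXN1[82Q], and the median, -0.04, changed sign to 0.01 under upper-quartile scaling. Casq2, a calsequestrin, a calcium store protein, fell from 41.5 ± 2.84 to 24.8 ± 1.92 CPM (-0.74, adjusted p = 7.76e-08), and Rcn3, a reticulocalbin, rose from 5.8 ± 0.946 to 7.98 ± 0.965 CPM (0.46, edgeR adjusted p = 0.0133). Of 7 genes of store-operated entry 3 were lower and 1 higher. These were the channel subunits Orai2 (70.5 ± 4.59 to 50.7 ± 5.19 CPM, -0.47) and Orai3 (-0.26) and the sensor Stim1 (-0.19) on the lower side, with edgeR adjusted p of 2.78e-05, 0.000255 and 0.000135. In the libraries with Ttr under 100 CPM Orai3 was at -0.22, with an edgeR adjusted p of 0.0797. The higher one, Saraf, at 0.10 (edgeR adjusted p = 0.0368), lost its call without wild-type replicate 2, 3 or 4 or ATXN1[82Q] replicate 2, 4 or 5, with an adjusted p of up to 0.105. Of 9 tested genes of mitochondrial calcium uptake 3 were lower and 1 higher. The higher one, Micu2 (0.20, edgeR adjusted p = 0.0248), lost its call without wild-type replicate 2 or 3 or ATXN1[82Q] replicate 4 or 5 (adjusted p from 0.0646 to 0.0724). Of the lower ones, Slc25a23 (-0.13, edgeR adjusted p = 0.026) lost its call without wild-type replicate 2 or 3 or ATXN1[82Q] replicate 2 (adjusted p from 0.0547 to 0.0779). Mcu, the pore of the uniporter, fell from 50 ± 1.74 to 40.6 ± 2.05 CPM (-0.30, edgeR adjusted p = 2.07e-05). For the substituted transgene no gene of these last 3 groups was called by edgeR, 2 genes in each had an unadjusted p under 0.05, and DESeq2 called 1 mitochondrial gene lower.

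**Figure D4:**
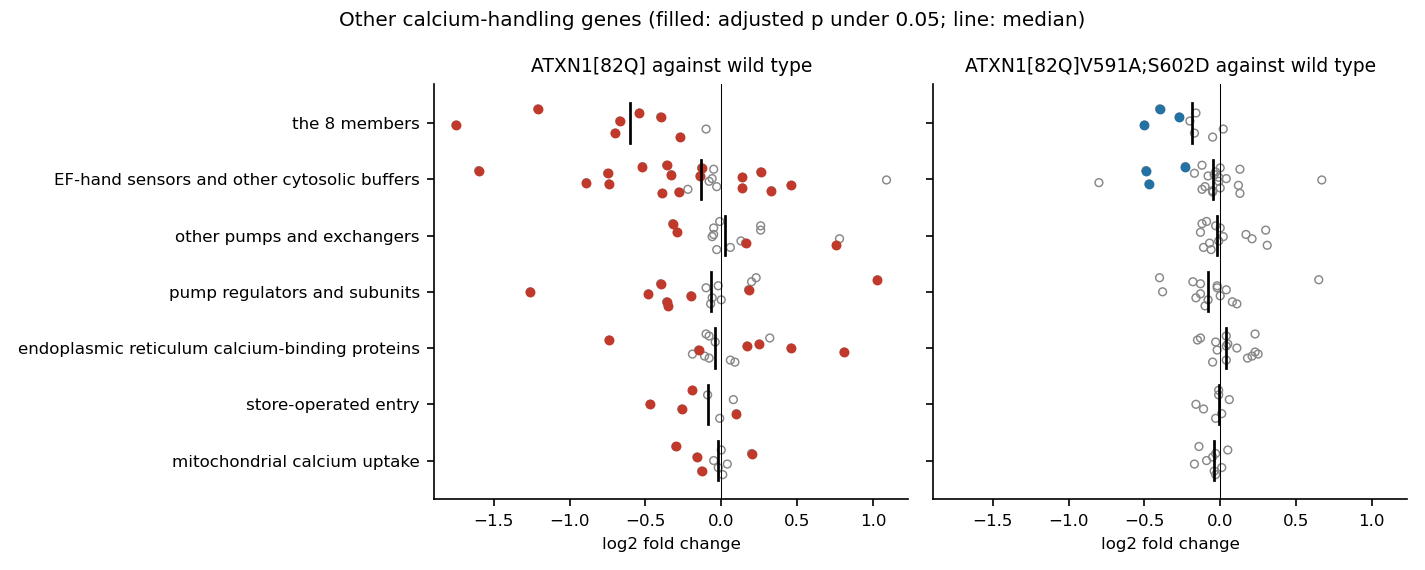
Log2 fold change (x axis) of the 8 genes and of 6 groups of other calcium-handling genes against wild type, with ATXN1[82Q] on the left and the substituted transgene on the right, where dots are genes, filled at an adjusted p under 0.05, and lines are medians. The median of the 8 genes is -0.61 on the left, and the 6 other groups have medians from -0.14 to 0.03.

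Between the transgenes, 10 of the 22 EF-hand genes were lower and 5 higher with ATXN1[82Q] than with the substituted transgene, and 5 lower and 2 higher in the libraries with Ttr under 100 CPM. Of all 15843 genes tested in this comparison, 14.6% were called lower and 2134 were called higher. Of 15 regulators and subunits 7 were lower and none higher, with 3 higher under upper-quartile scaling. Hpcal1 differed by -1.11 (adjusted p = 3.63e-07), Camk2a by -0.88 (adjusted p = 2.96e-05) and Ncald by -0.58 (edgeR adjusted p = 1.73e-06).

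For each called member, the 3 genes with the most similar profile over the 15 libraries were found among 12020 genes, by the root mean square difference of log2 levels, each centred on its own mean. Calb1 was closest to Inpp5a (0.0613), Kcnab1 (0.0726) and Ppp1r17 (0.0814), all 3 in the list of Purkinje cell markers. Atp2a3 had no neighbour as close: Cep76 (0.0981), Doc2b (0.101) and Hpcal1 (0.11). Ncald was the nearest gene to both Atp2a2 (0.0599) and Atp2b2 (0.0575), followed by Inpp4a (0.0659) and Arhgef3 (0.0704) for the former and by Lhx1 (0.0704), among others, for the latter. Calb2 was nearest to 0610007P14Rik (0.0649), Pkib (0.0768) and Camk2b (0.0796), and Pvalb to St6galnac6 (0.0579), Sepw1 (0.0638) and Btbd10 (0.0644). Slc8a1 was nearest to the sodium channel gene Scn1a (0.0335), to Akap6 (0.0407) and to Ipo7 (0.0432). A member with a small change has near neighbours more easily, since the members' own root mean square deviation ran from 0.147 for Slc8a1 to 0.751 for Atp2a3.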

How the data were processed

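RNA-seq libraries of 15 mouse cerebellum samples, 5 per genotype, were made from 10 ng of total RNA by amplification to double-stranded cDNA, with inserts of 400 bp, per the labels' protocols. Per the submitters' processing notes, STAR 2.5.3a and HTSeq were used with mm10, and DESeq2 is listed. The deposited counts are raw whole numbers per gene. The sources used here name neither counting mode nor annotation. Rows that name no gene were left out: 16.8% to 18.2% of reads lay outside genes, 1.18% to 1.25% were ambiguous and 12.8% to 14.6% aligned multiply. Libraries of 1 genotype differed beyond sampling noise in every pair (chi-square over its degrees of freedom, 5.7 to 40.6).

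The main test was edgeR's quasi-likelihood test (edgeR 4.0.16, R 4.3.3) on all 15 libraries together, with a mean per genotype, TMM factors (0.968 to 1.04), filterByExpr with a minimum count of 10 and Benjamini-Hochberg adjustment over 15843 genes, with calls at an adjusted p under 0.05. CPM are TMM-scaled, and log2 CPM used a prior count of 2. Within-library ratios were tested by 2-sided exact permutation in SciPy 1.17.1. Positions and exon lengths came from GENCODE M21 (GRCm38), and promoters from RefSeq. The script was tested on simulated counts.

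The 8 genes, the marker lists and the calcium lists were chosen with earlier results of these data known, so their direction is not independent evidence, and the lists got no test of their own. Besides the 8 genes, named genes were, per list and comparison, up to 4 called genes with the largest change and a mean log2 CPM of at least 0, the 3 nearest genes of each called member, and Ttr, and some of them are not described, 1 of which is not reported here. Atxn1 was added. Cabp8, Strit1 and Mcub were not matched, and 4 EF-hand genes (Rcvrn, Scgn, Ocm and S100g) and 7 of 14 brainstem genes were under the filter. Other marker lists were described alike. With ATXN1[82Q] against wild type, 6 of 9 oligodendrocyte genes were higher (1 without the libraries high in brainstem markers), 3 of 11 endothelial and mural genes higher (7 in the libraries with Ttr under 100 CPM), none of 10 choroid plexus genes called by edgeR or DESeq2 (none at an unadjusted p under 0.05), 5 of 12 astrocyte and Bergmann glia genes higher and 3 lower, 2 of 8 unipolar brush cell genes higher and 2 lower, and 4 of 7 tested brainstem genes higher (none higher and 1 lower without the libraries high in these markers, and 1 higher and 1 lower of 5 tested in the libraries with Ttr under 100 CPM). With the substituted transgene edgeR called none of the 57 tested genes of these 6 lists (7 at an unadjusted p under 0.05), and DESeq2 called 2. Alternatives were DESeq2 1.42.0, other scalings, no filter, only the genotypes compared, a replicate block, a covariate (Ttr or the brainstem mean), only libraries with Ttr under 100 CPM, and each library left out in turn. Leaving out the libraries with a brainstem mean over 1 log2 unit above wild type was chosen after seeing the data. Reads were amplified and carry no molecular identifiers, so they do not count independent molecules.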

Additional observations from a re-analysis of the deposited data

Results flagged for a closer look

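In 3 of the 24 groups of 5 libraries that the 8 genes give, the highest or lowest library stood apart from the other 4 by a gap that was over 0.71 of the range (Dixon's test), which chance gives in about 1 of 20 groups. Calb1 was at 912 CPM in replicate 3 of the substituted transgene, with the others from 741 to 785 CPM. Calb2 was at 308 CPM in wild-type replicate 4, with the others from 353 to 361 CPM. Pvalb was at 819 CPM in wild-type replicate 3, with the others from 897 to 912 CPM.

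Levels with the 2 transgenes differed by the edgeR test of the difference itself for 7 of the 8 genes, where 4454 of all 15843 genes tested were called in either direction. Transgene level, age and sex of the 2 lines are not given, and the cause of the difference was not tested. The log2 difference, ATXN1[82Q] minus the substituted transgene, was -1.25 for Atp2a3, -0.81 for Calb1, -0.53 for Atp2b2, -0.48 for Atp2a2, -0.38 for Calb2, -0.22 for Slc8a1 and -0.14 for Pvalb. The Pvalb call was kept under only 5 of 20 alternatives.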

How the results depend on the processing

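With ATXN1[82Q] against wild type 7 of the 8 genes were called lower under all 20 alternatives run. Over all genes, those called lower ran from 1598 of 15843 tested (upper-quartile scaling) to 2613 of 17602 (DESeq2). With the substituted transgene the count was 3 except 2 in the libraries with Ttr under 100 CPM, where Pvalb was at -0.31 with an adjusted p of 0.084, and 4 with DESeq2. Over all genes 138 of 15862 and 321 of 14875 were called lower in those 2 settings. Between the transgenes the count of the 8 genes ran from 5 to 7, and Pvalb was lost in 15 of 20. It was 5 in the libraries with Ttr under 100 CPM, where 904 of 15862 genes were called lower. Leaving out 1 library gave 7, 3 and from 6 to 7 genes in the 3 comparisons. Over all genes it gave 1876 to 2488, 120 to 258 and 1825 to 2453 called lower. Of 480 recomputed values of the 8 genes 462 stayed on their side of the threshold, 17 lost their call and 1 gained it. Uncalled values of Atp2b1 with the substituted transgene changed sign in 2 of them, and none of the others did. Of 960 values of named calcium-handling genes 113 lost their call and none changed sign. In the libraries with Ttr under 100 CPM, 0 of the 45 ratio tests passed, since the smallest exact p was 0.1 or 0.333 there, and all 45 differences kept their sign. Leaving out 1 library gave from 39 to 43 passed ratio tests, and the other 4 settings from 40 to 42. The log2 ratio of Calb1 to the Purkinje cell markers between the transgenes, -0.12, had an adjusted exact p of 0.068 with the markers' median and 0.0574 without the libraries high in brainstem markers.

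Over all genes, calls with ATXN1[82Q] fell from 4993 to 3234, and between the transgenes from 4454 to 1512, in the libraries with Ttr under 100 CPM. With the substituted transgene 223 genes were called, 429 with DESeq2, and from 136 to 307 with 1 library left out, with 143 without wild-type replicate 2 and 136 and 142 without replicates 2 and 4 of the substituted transgene. The cause was not tested. Equal replicate numbers did not pair libraries in general: 4 of 15 pairs correlated above 0.1, with a median of -0.109. The highest were 0.568 for replicate 5 of wild type and ATXN1[82Q] and 0.495 for replicate 1 of the 2 transgenes. Pairs of unequal number were not correlated, so a pairing of some libraries is not excluded. With the replicate block 7, 3 and 6 of the 8 genes were called, with Pvalb between the transgenes at an adjusted p of 0.0653. Of all 15843 genes 2198, 149 and 2184 were called lower with that block. With 5 libraries per genotype and a biological coefficient of variation of 0.102, the intervals printed beside uncalled values give the sizes of difference left unresolved.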
